A study of Mus musculus with 22 samples.

Results

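The chromosome 11 neighbourhood of the miR-21 gene was described through the 63 protein-coding genes that start between 84 and 94 Mb on mouse chromosome 11 (build mm10, GENCODE positions) and that had a mean level of at least 1 CPM in the tumors or in the cell lines. CPM is a gene's read count scaled to a common library size, here with the trimmed mean of M-values. GENCODE placed 86 protein-coding genes in the window, of 53342 genes in the count tables. Of the others, 22 stayed under the CPM minimum in both materials, among them Mpo (0.878 CPM in the tumors) and Nog (0.684 CPM in the tumors), and Vmp1, the gene that overlaps Mir21a, was left out. Defining the window by transcription start gave the same 63 genes.

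The study compared miR-21 knockout (KO) with wild-type (WT) mouse pancreatic cancer by RNA sequencing, in whole tumors and in cell lines grown from such tumors. There were 8 KO and 4 WT tumors, and 5 KO and 5 WT lines, all on the Bl6 background, with no treatment given. Sample titles name the animals KPC, a name used for a genetic mouse model of pancreatic cancer, and 5 of them supplied a tumor as well as a line. Lines came from dissociated tumors of symptomatic animals, with 8 or more passages to remove fibroblasts, and the submitters genotyped their recombined p53 alleles, including loss of heterozygosity. Animal ages and the knockout allele's construction were not given in the sources used here. Library totals ran from 24547650 to 31118113 counts.

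MicroRNAs are short RNAs that pair through their seed with messenger RNAs and lower their stability or translation. The miR-21 hairpin is often abundant in tumors and lies within the last part of Vmp1, whose product acts in autophagy. A knockout allele is made once in a founder genome, so genes close to it are inherited together with it. Trp53 lies on the same chromosome, 17 Mb towards lower coordinates, outside the window. In these samples the knockout and the sequence linked to it cannot be told apart, and DNA copy number was not measured.

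Mir21a occupies chr11:86584067-86584158 on the minus strand and had 0 counts in all 22 libraries, so the tables could not check the knockout at the hairpin itself. Its mature 5p strand, from RefSeq on GRCm38.p6, is shown with the seed, bases 2 to 8, in capitals, because the same letters were searched for in the neighbours.

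miR-21a-5p: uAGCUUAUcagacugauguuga

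The complement of that seed, ATAAGCT, was present in the 3′ UTR of 8 of the 63 neighbours (12.7%), against 1147 of 13913 expressed protein-coding genes (8.24%). None of the 8 had the longer match ATAAGCTA, which 331 of the 13913 genes had. The 8 were Mrm1, Myo19, Tbx2, Brip1, Ints2, Ptrh2, Hlf and Spag9. The median UTR searched was longer in the neighbours (1726 bases) than over all those genes (1349 bases). The matches of the 5 genes with an unadjusted p under 0.05 in the tumors are printed 5′ to 3′ with the match in capitals, from GENCODE transcripts.

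Tbx2: ggtaatttgtgtaaATAAGCTt
Hlf: cagtgatcaagaccATAAGCTc
Ints2: cttaagttaaggttATAAGCTt
Myo19: gctaccatatggggATAAGCTt
Ptrh2: ATAAGCTt

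In Ptrh2 the match opens the UTR, at its bases 1 to 7. A match is a string of letters, and binding was not measured.

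No neighbour passed the test between KO and WT lines, and none between KO and WT tumors. In the lines, edgeR's quasi-likelihood test called 0 of the 57 neighbours it could test at an adjusted p under 0.05, beside 0.0143% of all 14008 genes tested. In the tumors it called 0 of 63, beside 0.011% of 18108 genes. The smallest adjusted p of a neighbour was 0.714 in the lines (Rnf43) and 0.135 in the tumors (Tbx2). DESeq2 called 0 neighbours in the lines and 3 in the tumors, where it called 2.53% of all genes with an adjusted p as higher. The 3 were Tbx2, Sept4 and Hlf, and limma-voom called none in either material. Hlf met the CPM minimum through the KO tumors alone. No neighbour had all its KO libraries on one side of all its WT libraries. That order held for 0.65% of all genes above and 0.55% below in the lines, and for 1.24% above and 0.768% below in the tumors. Vmp1, tested in the same fit, had KO lines at 365 to 485 CPM and WT lines at 224 to 270 CPM, with an adjusted p of 0.299.

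At an unadjusted p under 0.05, 1 neighbour in 57 was above WT in KO lines (3.4% of all genes) and 2 were below (3.59% of all genes). In the tumors 4 of 63 were above (8.35% of all genes) and 12 were below (8.39% of all genes), a share of 19.0% against that background. The same share was 27.2% (238 of 876) among the other expressed protein-coding genes of chromosome 11 from 50 Mb on, so the excess of lower estimates was not confined to the neighbours. The count of 12 was 4 without WT tumor 3, where the share of all genes was 6.41%, and 7 without WT tumor 4 (5.72% of all genes). It was 8 without KO tumor 1 (7.13% of all genes), KO tumor 2 (9.06%) or KO tumor 4 (7.26%), and 19 without KO tumor 6 (10.1%). Upper quartile scaling gave 6, beside 6.19% of all genes. In the lines the count of 2 was 7 without WT line 3, where 6.98% of all genes and 126 of 759 other chromosome 11 genes from 50 Mb on were below. It was 0 or 1 without KO lines 1, 3, 4 or 5 or WT lines 1, 4 or 5.

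Most neighbours had lower estimates in KO samples of both kinds. In the lines 44 of 57 log2 fold changes were negative and their median was -0.16, beside -0.03 over all genes tested. In the tumors 48 of 63 were negative and their median was -0.18, beside 0.01 over all genes. Of the 57 genes tested in both materials, 37 were negative in both and 3 positive in both, and 5 animals are in both comparisons. With most estimates negative in each material, many genes are negative in both even if their signs are unrelated. The same share over all genes was not computed, so agreement of the materials gene by gene was not tested. The medians ran from -0.22 to -0.10 when each line was left out and from -0.26 to -0.13 when each tumor was left out. In the lines the median was -0.10 without WT line 1 and -0.11 without WT line 4.

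**Figure D1:**
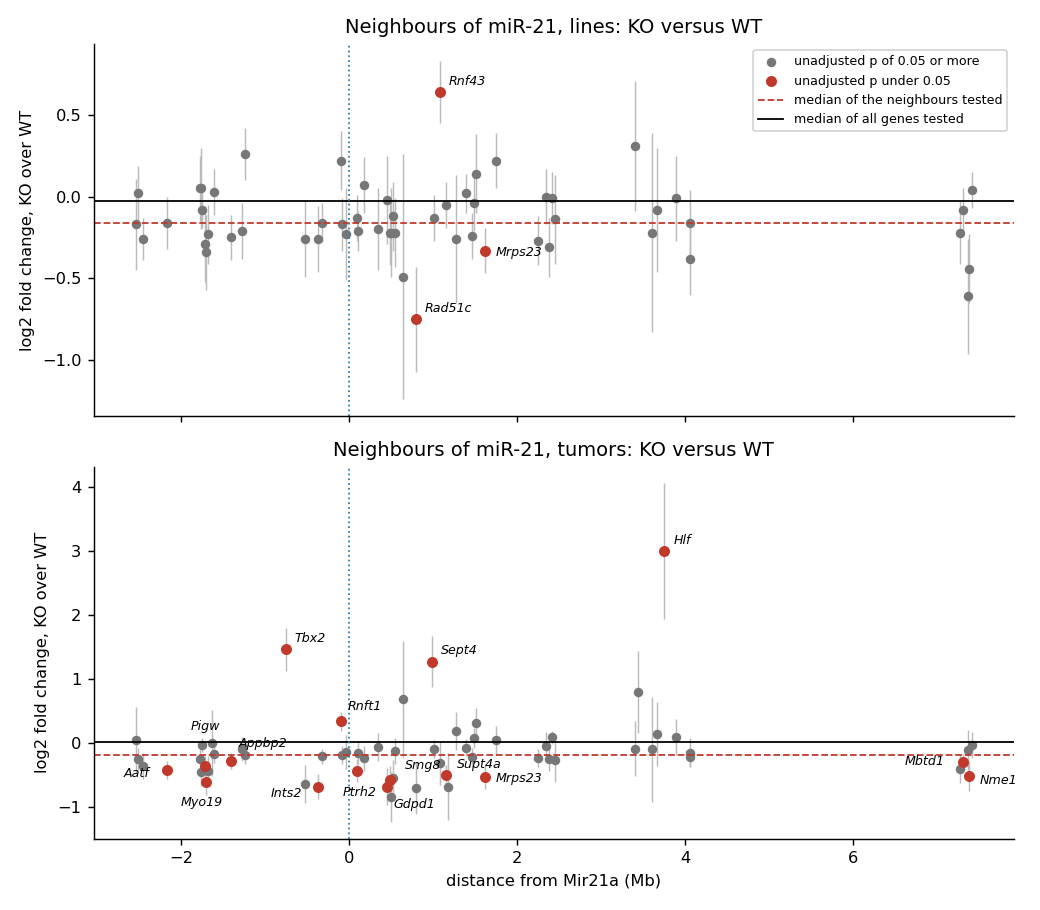
Log2 fold change of each neighbour between KO and WT (vertical axis) by distance of its lowest coordinate from Mir21a (horizontal axis, Mb), in the lines above and in the tumors below; bars are standard errors. Red points have an unadjusted p under 0.05, and the dashed medians of the neighbours (-0.16 and -0.18) lie below the solid medians of all genes tested (-0.03 and 0.01).

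The signed estimates showed no order by distance from the locus. In the tumors their size without sign had a larger median within 1 Mb than farther out. In the lines the median log2 fold change was -0.21 within 1 Mb of Mir21a (17 genes tested), -0.13 at 1 to 2.5 Mb (27 genes), -0.12 at 2.5 to 5 Mb (8 genes) and -0.22 beyond 5 Mb (5 genes). In the tumors the 4 medians were -0.21 (19 genes), -0.24 (29 genes), -0.02 (10 genes) and -0.29 (5 genes). Across genes, Spearman's rho between distance and log2 fold change was -0.02 in the lines (57 genes) and 0.18 in the tumors (63 genes); the genes share libraries and are not independent. The size of the estimate without its sign had a median of 0.22 within 1 Mb and 0.19 farther out in the lines. In the tumors it was 0.55 within 1 Mb and 0.23 farther out, beside 0.26 over expressed protein-coding genes. Spearman's rho between distance and this size was -0.02 in the lines and -0.23 in the tumors. Whether the 19 nearest genes differ from the rest in this respect was not tested.

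The 12 genes nearest to Mir21a, 6 on each side, were described one by one. On the side of lower coordinates the closest was Tubd1, which encodes delta-tubulin, at chr11:86544991-86567360, its end 16.7 kb from the hairpin. Tubd1 read 4.42, 8.15, 5.99, 4.7 and 4.62 CPM in the KO lines and 9.92, 6.57, 4.41, 6.53 and 5.7 CPM in the WT lines. The groups overlapped, and the log2 fold change was -0.23 ± 0.28 (SE) in the lines and -0.14 ± 0.26 in the tumors. Rps6kb1, the S6 kinase of the mTOR pathway, had -0.17 ± 0.16 and -0.18 ± 0.14. Rnft1, which encodes a RING finger membrane protein, was the one gene of the 12 above 0 in both, at 0.22 ± 0.18 in the lines and 0.34 ± 0.15 in the tumors. Rnft1 and Rps6kb1 share 155 exonic bases on opposite strands.

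Farther out on this side lay Med13, a subunit of the Mediator kinase module, Ints2, a subunit of the Integrator complex that processes small nuclear RNAs, and Brip1, a helicase of the Fanconi anemia pathway. Med13 had -0.16 ± 0.12 in the lines and -0.21 ± 0.12 in the tumors, and Brip1 -0.26 ± 0.23 and -0.64 ± 0.30. Ints2 had the smallest unadjusted p (0.00419) of the lower estimates in the tumors. It read 30.6, 26, 41.4, 20.5, 31.8, 43.4, 32.5 and 27.2 CPM in the 8 KO tumors and 56.8, 41.7, 41.2 and 59.9 CPM in the 4 WT tumors. All but 2 of the KO tumors, KO tumors 3 and 6, were below every WT tumor. The log2 fold change of Ints2 was -0.68 ± 0.20 (edgeR adjusted p 0.148), and -0.26 ± 0.20 in the lines. Ints2 and Med13 both overlap the antisense gene Brip1os, which had 48303 counts in all against 30073 for Ints2.

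On the side of higher coordinates the closest was Ptrh2, a mitochondrial peptidyl-tRNA hydrolase, at chr11:86683985-86692457, 99.8 kb from the hairpin and 148 bases from the start of Vmp1. Its log2 fold change was -0.13 ± 0.14 in the lines and -0.43 ± 0.18 in the tumors. Next was Cltc, the clathrin heavy chain, with the second highest level per kb of exon of all neighbours in the lines (107 CPM per kb). Cltc had -0.21 ± 0.12 in the lines and -0.15 ± 0.18 in the tumors. Dhx40, an RNA helicase gene, was above 0 in the lines (0.07 ± 0.17) and below it in the tumors (-0.24 ± 0.20), and the sign in the lines turned without KO line 4 or WT line 3. Ypel2 had -0.20 ± 0.25 and -0.06 ± 0.22. Gdpd1, a glycerophosphodiester phosphodiesterase gene, had -0.02 ± 0.27 in the lines and -0.68 ± 0.29 in the tumors, where KO tumor 2 was the lowest of all at 7.0 CPM. Smg8, a subunit of the kinase complex of nonsense-mediated decay, had -0.22 ± 0.20 and -0.58 ± 0.22. None of the 12 passed the test in either material.

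Among the lines the neighbour with the smallest p was Rnf43, a membrane ubiquitin ligase that removes Wnt receptors, at chr11:87662722-87735539. It read 22.8, 23.1, 21.3, 21.9 and 18.7 CPM in the KO lines and 19.9, 14.8, 11.5, 9.93 and 13.7 CPM in the WT lines. Of the KO lines 4 were above every WT line, and KO line 5 was below WT line 1. The SD was 1.77 CPM over the 5 KO lines and 3.84 CPM over the 5 WT lines, and the log2 fold change was 0.64 ± 0.19 (SE, unadjusted p 0.00593, edgeR adjusted p 0.714). In the tumors Rnf43 went from 9.0 to 51.6 CPM in KO (median 30.5) and read 53.6, 31.0, 33.6 and 30.1 CPM in WT. There its log2 fold change was -0.31 ± 0.34, and the difference between the KO effects in tumors and lines was -0.91 ± 0.42 (unadjusted p 0.0423, edgeR adjusted p 0.59).

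Rad51c, a gene of homologous recombination, had the lowest estimate in the lines. It read 4.39, 6.63, 4.81, 3.15 and 5.42 CPM in KO and 5.8, 8.5, 4.65, 13.9 and 8.5 CPM in WT. The groups overlapped, since WT lines 1 and 3 lay below the highest KO line, and the log2 fold change was -0.75 ± 0.32 (unadjusted p 0.0389, edgeR adjusted p 0.714). In the tumors it was -0.70 ± 0.41. Mrps23, a protein of the mitochondrial ribosome, was the one neighbour with an unadjusted p under 0.05 below 0 in both materials. Its mean was 38.0 ± 2.48 CPM (SD) in the 5 KO lines and 48.4 ± 9.58 CPM in the 5 WT lines, and WT line 3 at 33.0 CPM was below every KO line. The log2 fold change of Mrps23 was -0.33 ± 0.14 in the lines and -0.53 ± 0.18 in the tumors.

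The 3 highest estimates with an unadjusted p under 0.05 in the tumors belonged to genes with means under 1 CPM in the lines. Tbx2, a T-box repressor of developing organs, read 10.6, 4.61, 12.6, 9.38, 7.64, 6.49, 8.07 and 15.6 CPM in the 8 KO tumors and 2.42, 5.05, 3.02 and 2.9 CPM in the WT tumors. Only KO tumor 2 fell within the WT range. The log2 fold change was 1.46 ± 0.34 (unadjusted p 0.000989, edgeR adjusted p 0.135), DESeq2 gave 1.46 with an adjusted p of 0.00165, and without KO tumors 2 and 6 edgeR called the gene at 1.64. Sept4, the gene of septin 4 at chr11:87568903-87590539, read 23.3, 7.43, 16.7, 35.2, 14.9, 10.9, 20 and 27.9 CPM in KO and 5.3, 9.47, 5.88 and 11.1 CPM in WT. KO tumors 2 and 6 fell within the WT range. The log2 fold change was 1.27 ± 0.40 (edgeR adjusted p 0.173, DESeq2 adjusted p 0.0359).

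Hlf, a PAR bZIP transcription factor, rested on 1 tumor to a large degree. It read 1.57, 0.399, 0.574, 15.2, 0.692, 1.21, 2.4 and 4.36 CPM in KO and 0.178, 0.735, 0.257 and 0.455 CPM in WT. KO tumor 4 was over 3 times the next highest, and KO tumors 2, 3 and 5 lay within the WT range. The log2 fold change of Hlf was 2.99 ± 1.06 (edgeR adjusted p 0.207, DESeq2 adjusted p 0.0232). Its mean was 3.3 CPM in the KO tumors and 0.406 CPM in the WT tumors. It thus met the CPM minimum through the KO tumors alone, and a higher level there follows in part from the rule. In the lines Tbx2 averaged 0.527 CPM (highest 2.72, in KO line 2), Sept4 0.196 CPM and Hlf 0.17 CPM, and the KO comparison there could not test them. Tumors hold stroma beside cancer cells: the summed level of 7 fibroblast markers was 1959 to 11680.4 CPM in KO tumors, 2859 to 7599.7 CPM in WT tumors and at most 15.8 CPM in any line. All 7 fibroblast markers had positive estimates in KO tumors (median log2 fold change 0.37). So did all 7 acinar markers (median 1.91), all 7 myeloid markers (0.23), all 6 lymphoid markers (0.46) and the 6 granulocyte markers tested (0.73), and 3 of 5 endothelial and 4 of 5 eosinophil markers. KO tumor 4, the highest for Hlf and Sept4, also had the highest summed acinar (2153 CPM), granulocyte (292 CPM) and endothelial (361 CPM) levels of the tumors. KO tumor 8, the highest for Tbx2, had the highest fibroblast (11680.4 CPM), myeloid (2729.6 CPM) and lymphoid (360 CPM) sums. KO tumor 2, the lowest KO tumor for all 3 genes, had the lowest fibroblast sum (1959 CPM). WT tumor 3 had a fibroblast sum of 7599.7 CPM with Tbx2 at 3.02 CPM and Sept4 at 5.88 CPM. The part of these cell types in the estimates of the 3 genes was not tested. In bulk tissue more cells of a type and more RNA per cell cannot be told apart.

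**Figure D2:**
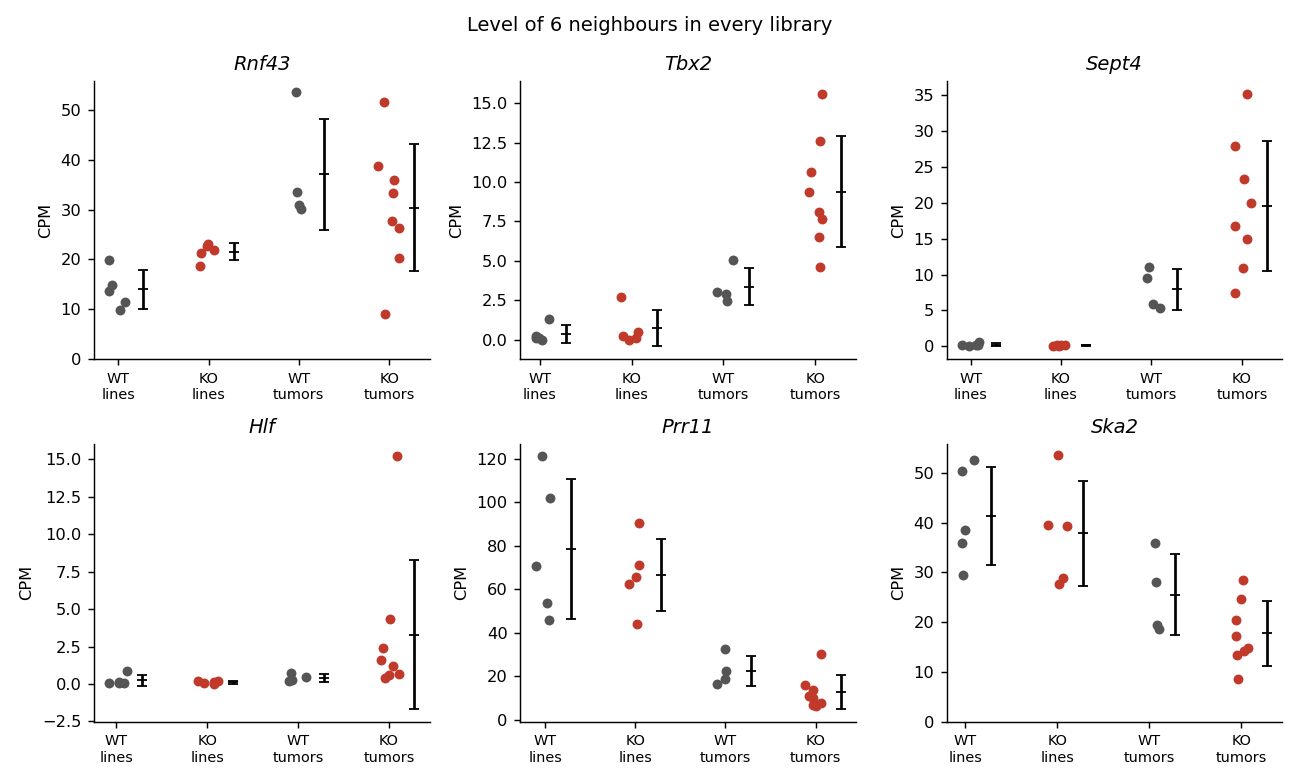
Level in CPM (linear axis) of Rnf43, Tbx2, Sept4, Hlf, Prr11 and Ska2 in every library, by group; points are libraries, and the marks beside them give the mean and SD. Tbx2, Sept4 and Hlf average 0.527, 0.196 and 0.17 CPM in the lines, and KO tumor 4 alone reaches 15.2 CPM for Hlf.

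The lower estimates of the tumors were spread over several functions. Besides Ints2 and Mrps23 the smallest p-values belonged to Aatf, a nucleolar protein of the DNA damage response, Myo19, a myosin that carries mitochondria, Supt4a, a transcription elongation factor subunit, and Smg8. Aatf was at 24.7 ± 2.89 CPM (SD) over the 8 KO tumors and 32.4 ± 5.92 CPM over the 4 WT tumors, with KO tumor 3 inside the WT range. Supt4a was at 21.7 ± 3.30 CPM over the KO tumors and 30.1 ± 5.90 CPM over the WT tumors, and KO tumor 3 at 25.1 CPM overlapped WT tumor 2 at 24.8 CPM. Myo19 was at 18.8 ± 4.02 CPM over the KO tumors and 28 ± 7.86 CPM over the WT tumors, with a log2 fold change of -0.61 ± 0.20. Myo19 overlaps Pigw and Znhit3 on the opposite strand, so its reads may be shared with them. The adjusted p of these 6 genes by edgeR went from 0.148 for Ints2 to 0.225 for Smg8.

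By role, the 5 genes of DNA damage and checkpoints (Brip1, Rad51c, Ppm1d, Aatf, Trim37) all had negative estimates in both materials, with medians of -0.22 in the lines and -0.42 in the tumors and 0 genes called. Of the 10 genes of RNA processing and ribosomes, among them the splicing factor Srsf1 and Utp18 of the small ribosomal subunit processome, 7 were negative in the lines (median -0.22) and 9 in the tumors (median -0.33). Of the genes of lipid and mitochondrial metabolism, such as Acaca, the acetyl-CoA carboxylase of fatty acid synthesis, 9 of 11 tested were negative in the lines (median -0.27) and 11 of 12 in the tumors (median -0.31). The 9 genes of membrane traffic were nearer to 0, with medians of -0.01 and -0.10. The 11 genes of kinase and developmental signalling had a median of -0.13 in the lines (10 tested) and 0.05 in the tumors. Transcription and chromatin genes had medians of -0.08 (9 tested) and -0.25 (11 tested), and genes of mitosis and microtubules -0.22 (6 tested) and -0.12 (7 tested). No list had a called member in either KO comparison. These counts stand beside 77.2% negative over all neighbours tested in the lines and 76.2% in the tumors. Over all genes tested the shares were 53.6% and 49.0%. Trim37, Aatf, Ppm1d and Coil are each in more than 1 list. The 7 proliferation markers were also all negative in the KO lines (median -0.43, from -0.50 to -0.16) and in the KO tumors (median -0.72). The 7 epithelial markers were all negative in the KO tumors (median -0.62), and 3 of 7 were in the KO lines (median 0.13). The part of both marker sets in the lower estimates of the neighbours was not tested.

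The median of the 8 neighbours with a seed match is given beside that of the others; the difference was not tested. Their median log2 fold change was -0.19 in the lines (6 tested) and -0.34 in the tumors (8 tested). The neighbours without a match had medians of -0.16 (51 tested) and -0.18 (55 tested). Tbx2 and Hlf were above 0 in the tumors, and Ints2, Myo19 and Ptrh2, printed above with the same 7 letters, were below 0. No neighbour passed the test of a difference between the KO effects of the 2 materials (edgeR, 0 of 63, beside 0.0% of 18643 genes). At an unadjusted p under 0.05 there were 3, Hlf, Sept4 and Rnf43, beside 8.25% of all genes.

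The level of the window as a whole differed between single libraries. For each library the deviation of every protein-coding gene with a mean of at least 5 CPM was taken from the median library of its material on the log2 scale, and the median over the neighbours was recorded. Among the lines it was -0.10, 0.09, 0.00, -0.24 and -0.12 in KO and 0.20, 0.06, -0.25, 0.23 and 0.01 in WT, over 53 neighbours. WT lines 1 and 4 were the highest and WT line 3 and KO line 4 the lowest, so the groups overlapped. Among the tumors it was -0.12, -0.27, 0.04, -0.07, -0.14, 0.22, 0.07 and -0.03 in KO and 0.17, -0.01, 0.23 and 0.10 in WT, over 55 neighbours. KO tumor 2 was the lowest and WT tumor 3 the highest, with KO tumor 6 next to it.

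The level of the neighbours went with that of the other chromosome 11 genes from 50 Mb on. Over the 10 lines the neighbours' median and the median of 643 other chromosome 11 genes from 50 Mb on (743 in the tumors) had a Pearson r of 0.92 (permutation p 6e-05, adjusted over both materials 0.00012) and a Spearman rho of 0.93 (permutation p 0.00036, adjusted 0.00036). Without the 2 lines farthest out, WT line 3 and KO line 4, r was 0.86. Over the 12 tumors r was 0.85 (permutation p 0.00041, adjusted 0.00041) and rho 0.89 (permutation p 0.00019, adjusted 0.00036), and r was 0.68 without KO tumor 2 and WT tumor 3. Both medians of a pair come from the same library. No gene set of another chromosome was set beside them, so a relation particular to chromosome 11 was not tested. In the KO comparison the other chromosome 11 genes from 50 Mb on had a median of -0.08 in the lines (65.3% negative) and -0.24 in the tumors (72.4% negative). Those under 50 Mb had medians of -0.08 in both. Over all expressed protein-coding genes the medians were -0.02 and -0.01. Without KO tumors 2 and 6 the neighbours and the other genes from 50 Mb on both had a median of -0.24 in the tumors.

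**Figure D3:**
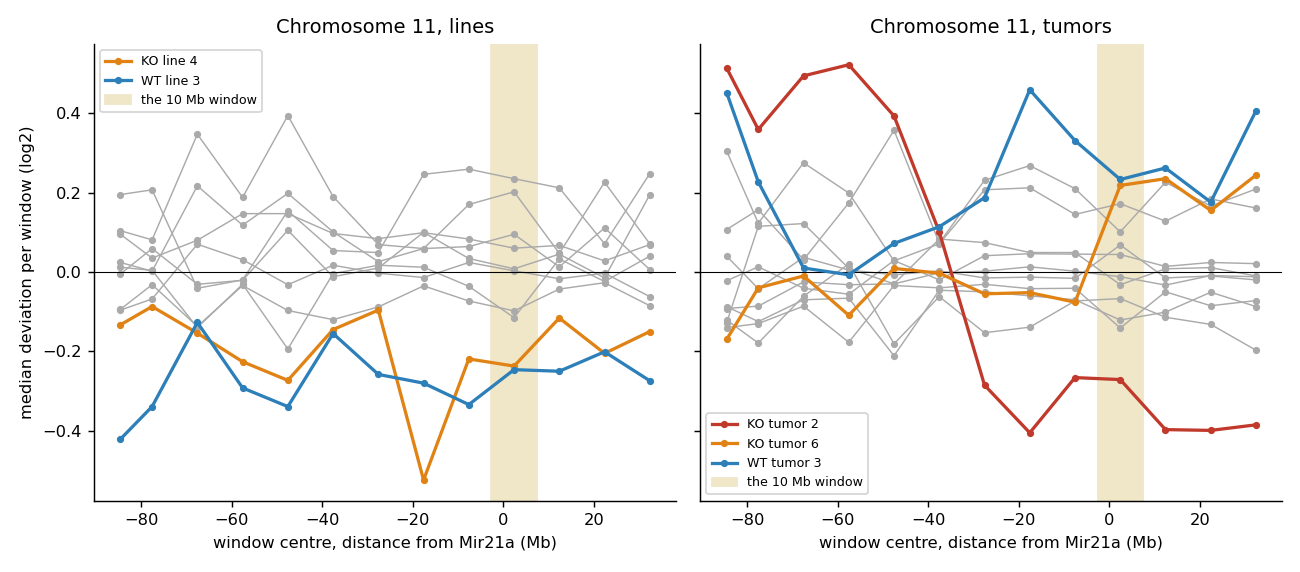
Median deviation of expressed protein-coding genes from the median library (log2, vertical axis) in 10 Mb windows along chromosome 11, by distance of the window's centre from Mir21a (Mb), for each line and each tumor; the shaded band is the window of the neighbours. Coloured lines are the libraries of the key and grey lines the rest: KO tumor 2 goes from above 0 to below 0 well before the band, KO tumor 6 is near 0 before it and at 0.235 just beyond, and WT line 3 stays below 0 throughout.

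KO tumors 2 and 6 changed level along the chromosome, and so did WT tumor 3. Among the lines, KO line 4 had a median deviation of -0.096 at 54 to 64 Mb. It was at -0.524 at 64 to 74 Mb, the part that holds Trp53, and at -0.219 at 74 to 84 Mb. In WT tumor 3 the other genes under 50 Mb had a median deviation of 0.07 and those from 50 Mb on 0.32. WT line 4, of the same animal, had 0.07 and 0.19. KO line 1, of the animal of KO tumor 2, had -0.07 and -0.06. In KO tumor 2 the other genes under 50 Mb had a median deviation of 0.44 and those from 50 Mb on -0.33, and the neighbours lay with the latter at -0.27, with 47 of 55 below 0. The lowest of them were Gdpd1 at 7.0 CPM, Pctp, a phosphatidylcholine carrier, at 1.6 CPM, and Tmem100, a membrane protein known from endothelium, at 0.471 CPM. KO tumor 2 also had the lowest summed fibroblast level of the tumors (1959 CPM), and an endothelial sum of 116 CPM. KO tumor 6, with the lowest endothelial sum (97.1 CPM), had the highest Tmem100 (12.6 CPM). The part of cell types in these levels was not tested. In KO tumor 6 the step fell inside the window. The 15 neighbours starting between 84 and 86 Mb had a median of -0.01 with 7 above 0, the 31 between 86 and 90 Mb had 0.24 with 24 above 0, and the 9 between 90 and 94 Mb had 0.65 with all 9 above 0. Beyond the window the medians of KO tumor 6 were 0.235 at 94 to 104 Mb and 0.155 at 104 to 114 Mb. The largest exceptions to the step were Dusp14 and Rnf43. Dusp14, a phosphatase gene at the far lower end, was at 21.4 CPM against at most 9.74 CPM in any other tumor. Rnf43 was at 9.0 CPM against at least 20.3 CPM. Between 86 and 90 Mb, Ypel2 (-0.54), Sept4 (-0.23), Pctp (-0.22), Trim25 (-0.19), Rps6kb1 (-0.18) and Supt4a (-0.11) were also below 0. Between 84 and 86 Mb, Acaca was at 0.47. The positions of the bounds at 86 and 90 Mb were chosen after these values were seen. Copy number was not measured.

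**Figure D4:**
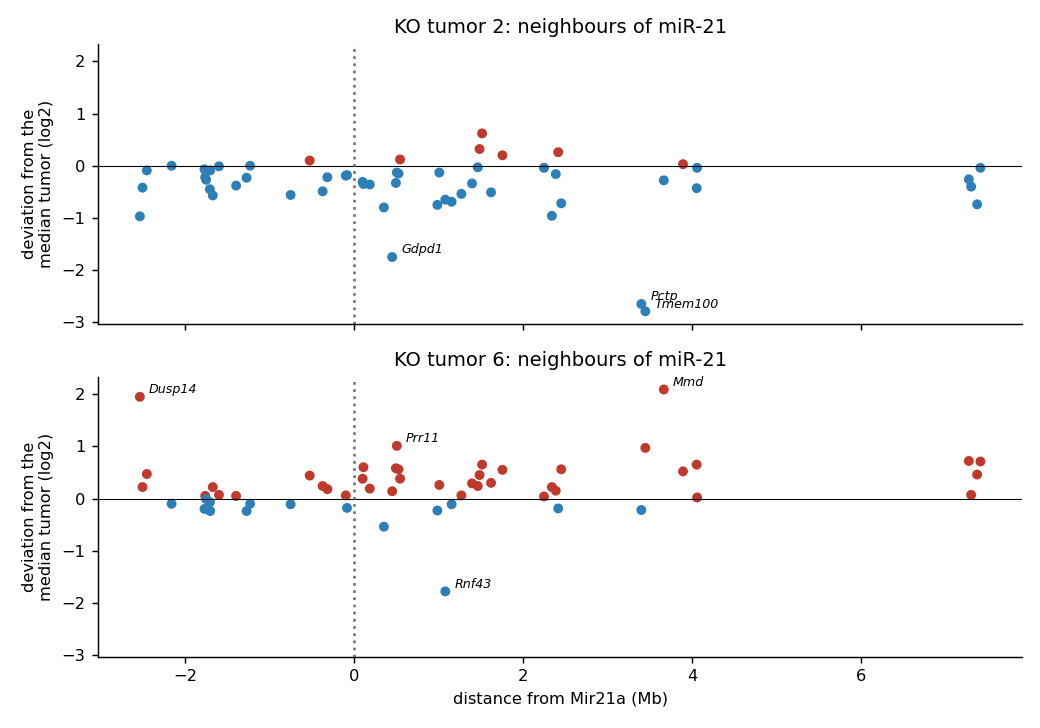
Deviation of each neighbour from the median tumor (log2, vertical axis) in KO tumor 2 and KO tumor 6, by distance from Mir21a (Mb); red points lie above 0 and blue points at or below it. In KO tumor 2 most neighbours lie below 0 on both sides, and in KO tumor 6 most lie above 0 from near the locus on, with a median of 0.65 over the last 9.

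Several neighbours start head to head with a partner less than 1000 bases away. The 7 such pairs were Tada2a and Acaca, Pigw and Myo19, Rps6kb1 and Tubd1, Vmp1 and Ptrh2, Prr11 and Ska2, Stxbp4 and Cox11, and Utp18 and Mbtd1. Correlations of their log2 levels over the libraries were computed in both materials, 14 in all. Prr11, a regulator of mitosis, and Ska2, a subunit of the complex that holds spindle microtubules at kinetochores, had the highest, with 525 bases between their starts. Over the 12 tumors Pearson's r was 0.92 (permutation p 3e-05, adjusted 0.00042) and Spearman's rho 0.91 (permutation p 0.00011, adjusted 0.00154), and r was 0.88 without the 2 tumors farthest out. Over the 10 lines r was 0.76 (permutation p 0.0112, adjusted 0.0784) and rho 0.82 (permutation p 0.00592, adjusted 0.0414), and r was 0.63 without the 2 farthest. No other pair passed adjustment. Any 2 neighbours had a median r of 0.23 over the tumors and 0.30 over the lines. Prr11 and Ska2 were not compared with pairs of other genes of mitosis. Vmp1 and Ptrh2, whose starts lie beside each other at the end of Vmp1 away from the hairpin, had r of -0.05 over the tumors and -0.20 over the lines.

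The promoters of Prr11 and Ska2 are printed because the pair moved together. Each is the 300 bases from 250 before to 50 after the RefSeq start (GRCm38.p6), read along its own gene, with CCAAT and its reverse complement ATTGG in capitals. Prr11 lies on the minus strand at chr11:87108665-87108964 and Ska2 on the plus strand at chr11:87109011-87109310.

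Prr11: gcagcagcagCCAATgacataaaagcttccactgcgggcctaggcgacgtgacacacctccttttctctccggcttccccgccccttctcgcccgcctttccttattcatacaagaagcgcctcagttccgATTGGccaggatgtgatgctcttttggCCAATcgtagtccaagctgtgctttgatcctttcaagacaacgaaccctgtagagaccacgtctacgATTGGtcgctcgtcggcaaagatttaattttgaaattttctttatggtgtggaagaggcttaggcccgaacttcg
Ska2: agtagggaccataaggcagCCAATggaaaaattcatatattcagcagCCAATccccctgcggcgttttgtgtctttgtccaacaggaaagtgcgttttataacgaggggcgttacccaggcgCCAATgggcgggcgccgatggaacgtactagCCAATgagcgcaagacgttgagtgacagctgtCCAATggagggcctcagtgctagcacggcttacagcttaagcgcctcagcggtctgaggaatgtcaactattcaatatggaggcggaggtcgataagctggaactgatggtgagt

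CCAAT, on either strand, was present 4 times in the Prr11 window and 5 times in the Ska2 window. Of 32851 promoter windows of that length 37.4% held it at least once, 1.06% held at least 4 copies and 0.271% at least 5. RefSeq promoters were matched for 54 of the 63 neighbours, and of their 66 windows 31.8% held CCAAT. Brip1 was the one other neighbour with at least 3 copies. The GC box GGGCGG was in 69.7% of the neighbours' windows against 35.7% of all, the ETS core CCGGAAG in 19.7% against 8.86%, and the TATA box TATAAA in 4.55% against 13.6%, each on either strand. The 32851 windows were of all promoters, while the neighbours are expressed protein-coding genes, so the sets compared are unlike. A difference from other expressed genes was not tested. A match is a description of the letters, and factor binding was not measured.

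Prr11 went from 6.18 to 30.2 CPM in the KO tumors (median 10.5) and read 18.6, 16.3, 32.4 and 22.3 CPM in the WT tumors. Ska2 went from 8.53 to 28.4 CPM in KO (median 16.0) and read 18.7, 19.4, 35.9 and 28 CPM in WT. KO tumor 4 was the lowest and WT tumor 3 the highest for both genes. Their log2 fold changes were -0.84 ± 0.39 and -0.55 ± 0.29, with unadjusted p of 0.0531 and 0.0832 (edgeR adjusted p 0.306 and 0.364). The summed level of 7 proliferation markers was also lowest in KO tumor 4 (157 CPM) and highest in WT tumor 3 (646 CPM). It ran from 157 to 525 CPM in KO and from 331 to 646 CPM in WT tumors, and all 7 markers had negative estimates in KO tumors. The summed level of 7 epithelial markers was 3763 to 7994 CPM in KO and 5732 to 13459 CPM in WT tumors. The part of these in the estimates of Prr11 and Ska2, and in the correlation of the pair, was not tested.

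Between tumors and lines most neighbours differed. edgeR called 44 of the 63 at an adjusted p under 0.05, 14 higher in the tumors (38.5% of all genes were called higher) and 30 lower (27.0% of all genes). Of the protein-coding genes at the same CPM minimum, 4624 of 13916 were called higher and 4559 lower. The median log2 difference of the neighbours was -0.33, beside 0.15 over all genes tested and -0.01 over those protein-coding genes. Upper quartile scaling moved the median of all genes to 0.27 and that of the neighbours to -0.21, with 14 called higher and 28 lower. Other settings and left-out libraries gave 42 to 46 calls. Of the 63 genes 55 met the CPM minimum in both materials, and of these 8 were called higher and 29 lower in the tumors. The other 6 higher calls came from the 7 genes that met the minimum in the tumors alone, for which a higher level there follows in part from the rule.

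**Figure D5:**
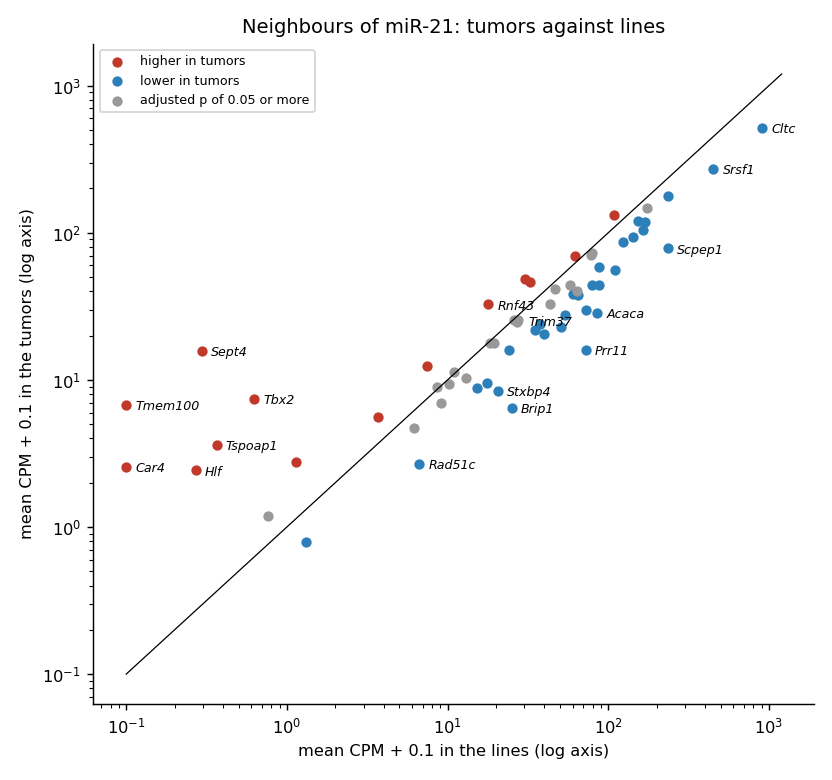
Mean level of each neighbour in the tumors (vertical) against the lines (horizontal), in CPM plus 0.1 on log axes, with the line of equal level; red and blue points passed the test as higher or lower in the tumors. Of the 63 genes 30 are marked lower and 14 higher, and 6 genes with little or no signal in the lines lie far above it.

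Tmem100 and Car4 had 0 counts in all 10 lines. Tmem100 went from 0.471 to 12.6 CPM in the 12 tumors, and its mean of 6.69 CPM was at least 50.3-fold higher than the level that 3 counts per library would give in the lines. Car4, a membrane carbonic anhydrase of capillary endothelium and some epithelia, had a mean of 2.47 CPM in the tumors and was at least 18.5-fold higher. Sept4 was higher by 6.06 ± 0.49 on the log2 scale (adjusted p 2.7e-09), Tspoap1, which encodes a synaptic active zone scaffold, by 3.88 ± 0.53, Tbx2 by 3.55 ± 0.70 and Hlf by 2.93 ± 0.75. Rnf43, present in both materials, was higher in the tumors by 1.00 ± 0.21 (17.8 ± 4.89 CPM over 10 lines and 32.6 ± 12.2 CPM over 12 tumors).

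The lower genes included those of the cell cycle and DNA repair, and the counts by list stand beside 30 of 63 neighbours and 4559 of 13916 expressed protein-coding genes called lower. Prr11 had 72.6 ± 24.8 CPM (SD, n = 10) in the lines and 15.9 ± 8.69 CPM (SD, n = 12) in the tumors, without overlap, and a log2 difference of -2.04 ± 0.26. Brip1 went from 25.0 ± 7.19 CPM in the lines to 6.36 ± 2.40 CPM in the tumors, a difference of -1.83 ± 0.20. All 5 genes of the DNA damage list were negative here, and 4 were called lower, the exception being Ppm1d, the WIP1 phosphatase, at -0.07 ± 0.13. The 7 proliferation markers summed to 1147 to 2474 CPM in the lines and 157 to 646 CPM in the tumors, and their part in these differences was not tested. Scpep1, a serine carboxypeptidase, fell from 236 ± 43.2 to 78.1 ± 16.5 CPM, Acaca from 85.2 ± 14.3 to 28.4 ± 7.18 CPM, Trim37, a centrosomal ubiquitin ligase, by 1.21 ± 0.15 on the log2 scale and Stxbp4 by 1.25 ± 0.20. Of the 9 membrane traffic genes 8 were lower, Cltc among them at -0.73 ± 0.11, and Rnft1 was not called (-0.16 ± 0.11). Of the 10 genes of RNA processing 7 were lower, with Srsf1 at -0.63 ± 0.10. Levels per kb of exon in the lines were highest for Scpep1 (112 CPM per kb), Cltc (107) and Srsf1 (78.9), and Scpep1 fell to 37.2 CPM per kb in the tumors, below Cltc (60.9), Srsf1 (47.8) and Dynll2, a dynein light chain gene (43.8).

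Annotation limits single genes of the window. Nme2 is one of a pair of nucleoside diphosphate kinase genes of similar sequence beside Nme1, and a read-through gene, Gm20390, spans both with 0 counts, so the level of Nme2 (1.22 CPM in the lines, against 58.1 CPM for Nme1) may be set by how shared reads were counted. Gm45716 shares 280 exonic bases with Mmd on the same strand and had 1221 counts in all against 30761 for Mmd. Some neighbours share exonic bases with an opposite-strand gene whose total counts were at least 5% of their own. Leaving these out kept 54, with medians of -0.14 in the lines and -0.16 in the tumors. Reads in the shared bases were not counted apart.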

How the data were processed

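The authors deposited raw counts per gene, in 2 tables, of the lines and of the tumors, made from single-end reads of stranded mRNA libraries, per the labels. Per the submitters' processing notes, bcl2fastq 1.9.0, Trim Galore and STAR were used with build mm10; the counting annotation and strand setting are not given in the sources used here. Of 53342 gene IDs, 53237 matched GENCODE vM21, and 105 rows without a symbol (0.00944% of counts) were left out. The counts were tested in R 4.3.3 with edgeR 4.0.16 (TMM factors, filterByExpr, robust quasi-likelihood fit, Benjamini-Hochberg adjustment over all genes), with DESeq2 1.42.0 and limma 3.58.1 as alternatives. The SE of a log2 fold change was computed as its size divided by the square root of edgeR's F statistic. The scripts were tested on simulated data. Each comparison used its own groups, and those of tumors with lines used all 22 libraries. Groups came from the genotype labels, and replicate numbers follow sample order and pair nothing. Counting precision is set by 24547650 to 31118113 counts per library. No 2 libraries of a group agreed within sampling noise. The neighbours and gene lists were chosen with earlier results of these data known. Named genes were any called in a KO comparison or their difference, the 6 nearest on each side, the 6 smallest p-values in each direction of each KO comparison, the 6 largest called differences each way between tumors and lines at a mean of at least 1 CPM, up to 4 per role list by level, and those with a seed match. Vmp1, Mir21a and Trp53 were named beside them. The promoters of Prr11 and Ska2, KO tumors 2 and 6, KO line 4, Dusp14 and the window bounds at 86 and 90 Mb were singled out after their values were seen. Pair partners, Pigw, Znhit3, Nme2 and Gm45716 were named for their annotation. Ppm1e was named for the way it met the CPM minimum. Deviations used log2(CPM + 0.5).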

Additional observations from a re-analysis of the deposited data

Results flagged for a closer look

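Within a group of 4 to 8 libraries, 18 levels of named neighbours lay far from the others by Dixon's ratio, among 183 searches, which cover each named neighbour in each group where its mean was at least 1 CPM, and the neighbours' median deviation in each group. Chance flags about 1 group in 20. KO tumor 6 was high for Smg8 (32.2 CPM), Prr11 (30.2 CPM), Mmd (119.7 CPM) and Utp18 (59.9 CPM), which all start at higher coordinates than Mir21a. KO tumor 2 was low for Gdpd1 (7.0 CPM), Supt4a (14.9 CPM) and Pctp (1.6 CPM). KO tumor 4 was high for Hlf (15.2 CPM) and Rps6kb1 (97.6 CPM), and KO tumor 3 for Aatf (31.2 CPM). Among the WT tumors, tumor 1 was high for Rnf43 (53.6 CPM), tumor 3 for Myo19 (39.7 CPM) and tumor 4 for Mrm1 (16.4 CPM) and Pctp (18.9 CPM). Among the lines, KO line 5 was high for Acaca (83.7 CPM) and Cuedc1 (42.1 CPM), and WT line 3 was low for Ptrh2 (31.0 CPM) and Dhx40 (84.3 CPM).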

How the results depend on the processing

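All alternatives left 0 neighbours called in the lines and in the difference of KO effects, and 42 to 46 between tumors and lines. In the tumors DESeq2 called 3, and edgeR without KO tumors 2 and 6, a choice made after seeing the data, called 1 (Tbx2); the cause was not tested. The median fold changes kept their sign throughout, within 1 Mb from -0.25 to -0.10 (lines) and -0.27 to -0.17 (tumors) without single libraries. The hairpin had no counts to compare, and in the lines 6 neighbours were too low to be tested between genotypes. Some estimates changed sign with single libraries left out, over these log2 ranges in the lines: Cuedc1 -0.03 to 0.25, Dhx40 -0.08 to 0.14, Dynll2 -0.02 to 0.07, Gdpd1 -0.19 to 0.10, Mmd -0.31 to 0.08, Mrm1 -0.03 to 0.14, Stxbp4 -0.13 to 0.15, Supt4a -0.15 to 0.01, Trim25 -0.08 to 0.14, Vezf1 -0.15 to 0.07 and Ypel2 -0.33 to 0.08. In the tumors they were Ggnbp2 -0.07 to 0.03, Mmd -0.32 to 0.52, Msi2 -0.08 to 0.31, Pctp -0.19 to 0.17, Ppm1d -0.18 to 0.06, Scpep1 -0.11 to 0.06, Spag9 -0.14 to 0.12, Stxbp4 -0.04 to 0.28, Trim37 -0.25 to 0.09, Tspoap1 (-0.68 with all) -1.01 to 0.21, above 0 without WT tumor 4, and Ypel2 -0.14 to 0.03. Without KO tumors 2 and 6 the sign turned for Ggnbp2 (0.02), Ypel2 (0.11), Vezf1 (-0.03), Msi2 (-0.07), Scpep1 (0.03), Pctp (0.13), Mmd (-0.26) and Stxbp4 (-0.01). It turned with upper quartile scaling for Trim25 in the lines (0.01) and Ggnbp2 (0.03), Scpep1 (0.02) and Spag9 (0.03) in the tumors, with limma-voom for Trim25 in the lines (0.01), and with all libraries in 1 fit for Ggnbp2 in the tumors (0.01). Between KO and WT, no paired analysis was possible because no animal is in both genotypes. Between tumors and lines, where 5 animals are in both, limma with the animal as a block called 44 neighbours.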
